A study of Mus musculus with 6 samples.

Results

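The 10 genes examined were the KMT2/SET1 family and genes listed with it under COMPASS (complex of proteins associated with Set1) chromatin regulators. These were Kmt2a, Kmt2b, Kmt2c, Kmt2d, Kmt2e, Setd1a, Setd1b, the UTX-type demethylases Kdm6a and Kdm6b, and Ncoa6. They were chosen by name from 55471 genes in the table of counts, after the Ensembl gene identifiers had been matched to symbols, by a rule that uses no measured value, although earlier results of these data were known when the list was drawn up. All 10 were found, and all 10 passed the filter on low counts. RNA-seq had been performed on the hippocampus of 6 male mice (C57BL/6 in the labels, C57BL/6J in the study's methods) aged 3 to 6 months, with 1 library per mouse, 3 in each group. In the p300-ifKO group the floxed Ep300 gene was recombined by creERT2, a tamoxifen-activated Cre driven from Camk2a. The Camk2a driver is active in excitatory forebrain neurons, so the other cells of the tissue retained an intact Ep300. Mice of both groups received 5 administrations of tamoxifen (20 mg/ml). The labels do not say the same of the controls throughout: by the protocol they are littermates that lack creERT2, but Camk2a_creERT2 also stands in the description of their libraries. The human estrogen receptor domain of creERT2 is read as Esr1, which had 109, 87.2 and 108 normalized counts (counts divided by the size factor of the library) in the controls and 4217, 2416 and 2868 in p300-ifKO mice. The question put to these genes was whether their transcript levels differed between mice with a recombined gene for the acetyltransferase p300 and controls.

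KMT2 and SET1 enzymes place methyl groups on lysine K4 of histone H3. SETD1A and SETD1B are tied to trimethylation (H3K4me3) at promoters across the genome, KMT2A and KMT2B to promoters of particular gene sets, and KMT2C and KMT2D to monomethylation (H3K4me1) at enhancers. KDM6A (UTX) and NCOA6 are subunits of the KMT2C and KMT2D complexes. KDM6A also has a demethylase fold for the repressive mark H3K27me3, an activity shared with KDM6B (JMJD3). p300 and its paralogue CBP acetylate H3K27 at the same kind of enhancers. Loss-of-function variants of several of these genes, KMT2D and KDM6A in Kabuki syndrome among them, cause intellectual disability.

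Promoters from RefSeq (GRCm38.p6, from 250 bases before the annotated start to 50 after it) were matched for Kmt2a, Kmt2c, Kmt2d, Setd1a, Kdm6a and Ncoa6, and for Uty, the Y-linked paralogue of Kdm6a. Kmt2b, Kmt2e, Setd1b and Kdm6b had no entry in that table. The sequences printed here are the promoter of Kmt2a (chr9:44881240-44881539, minus strand), as an example rich in CG dinucleotides, and those of the X- and Y-linked paralogues Kdm6a (chrX:18162325-18162624, plus strand) and Uty (chrY:1245710-1246009, minus strand), written 5′ to 3′ with each CG in capitals.
Kmt2a: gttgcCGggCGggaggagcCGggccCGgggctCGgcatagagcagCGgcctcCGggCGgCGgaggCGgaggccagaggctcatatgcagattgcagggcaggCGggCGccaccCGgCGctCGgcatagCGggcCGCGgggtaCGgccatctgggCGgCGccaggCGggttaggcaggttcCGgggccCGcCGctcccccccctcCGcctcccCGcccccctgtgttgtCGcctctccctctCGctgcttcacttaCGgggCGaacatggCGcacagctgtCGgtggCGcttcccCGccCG
Kdm6a: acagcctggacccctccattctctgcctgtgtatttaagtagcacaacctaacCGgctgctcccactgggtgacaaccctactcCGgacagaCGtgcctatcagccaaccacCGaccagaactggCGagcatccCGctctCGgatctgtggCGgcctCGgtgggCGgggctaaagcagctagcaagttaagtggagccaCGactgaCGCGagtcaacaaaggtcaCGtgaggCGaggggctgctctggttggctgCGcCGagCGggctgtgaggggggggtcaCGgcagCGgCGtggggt
Uty: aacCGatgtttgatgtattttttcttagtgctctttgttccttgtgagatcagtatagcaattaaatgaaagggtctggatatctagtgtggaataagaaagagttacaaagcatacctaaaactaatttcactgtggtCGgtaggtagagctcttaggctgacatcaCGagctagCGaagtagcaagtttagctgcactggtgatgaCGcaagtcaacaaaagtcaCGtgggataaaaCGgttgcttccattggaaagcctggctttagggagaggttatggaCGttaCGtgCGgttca

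CG dinucleotides are what the CXXC domains of KMT2A and KMT2B bind when unmethylated. The window of Kmt2a held 36 of them, those of Kmt2c, Kmt2d and Setd1a 56, 27 and 35, and that of Kdm6a 21, against a median of 7 over 32851 promoters. The window of Uty held 10. That of Ncoa6 held 1, but it surrounds a start inside the gene and not the 5′ end of the gene as annotated, so it is not comparable with windows at a 5′ end. The window of Setd1a (chr7:127777139-127777438, plus strand) also lies inside the gene, which begins at 127776670 as annotated. A part of the CREB binding motif, TGACG, searched on both strands, was found in 1 of the 6 members, Kdm6a, and in Uty. It was present in 20.8% of all promoters. The full palindrome TGACGTCA, which contains TGACG, was found in 0 of the 6 and in 1.79% of all promoters. The longest run of bases that the Kdm6a and Uty windows shared was 10 bases.

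The libraries held between 23151568 and 28433823 counts each. Ep300, the targeted gene, had 1545, 1474 and 2334 normalized counts in the controls and 478, 1350 and 912 in the p300-ifKO group. Its replicate 2 lay close to the lowest control, and the gene did not pass the test (log2 fold change −0.97, SE 0.33; DESeq2, adjusted p = 0.991). Ep300 was called lower with 1 surrogate variable (−0.49, DESeq2 adjusted p = 0.00313) and without p300-ifKO replicate 2 (−1.36, DESeq2 adjusted p = 0.000356). Markers of excitatory neurons, among them Camk2a and the granule cell factor Prox1, were present in all 6 libraries, which fits the labelled hippocampus. Because tissue was sequenced, fewer cells of a type and less RNA per cell cannot be told apart in any value given here. With 1 mouse per library, the spread within a group includes differences between mice.

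None of the 10 genes passed the test between the groups: 0 were called higher and 0 lower (DESeq2 Wald test, Benjamini-Hochberg adjusted p under 0.05), and 0 had an unadjusted p under 0.05 in DESeq2 or in edgeR. Among all 32773 genes tested, 0.0061% were called higher and 0% lower, and 1.32% had an unadjusted p under 0.05. In edgeR, which called 0 members too, these shares were 0.0117%, 0% and 2.3% of 17131 genes. Adjusted p was between 0.991 and 0.997 in DESeq2 and between 0.745 and 0.933 in the edgeR quasi-likelihood test. The log2 fold change of p300-ifKO over control was below 0 for 9 members and above 0 for Setd1a, with a median of −0.30 beside −0.046 over all genes tested. The 95% intervals of the individual members reached down to −1.08 and up to 0.28, so a difference within those limits could not be told from none in these mice. For 0 of the 10 did the groups fail to overlap, where 7.46% of the 17070 genes with a mean of at least 10 normalized counts did so.

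The closest paralogues Kmt2a and Kmt2b encode the MLL1 and MLL2 enzymes, which work with menin. Kmt2a (ENSMUSG00000002028, chr9:44803355-44881296, minus strand, 16.67 kb of exon) had 3874, 3886 and 5927 normalized counts in control replicates 1, 2 and 3 and 2120, 4725 and 3377 in p300-ifKO replicates 1, 2 and 3. One control stood high and 1 p300-ifKO mouse low, and p300-ifKO replicate 2 exceeded 2 of the controls. The means were 4562 ± 1182 and 3407 ± 1303 (SD, n = 3 each), and the log2 fold change was −0.42 with SE 0.29. Kmt2b (ENSMUSG00000006307, chr7:30568858-30588726, minus strand, 9.596 kb) had 2362, 2095 and 2347 in the controls and 1683, 2593 and 1833 in p300-ifKO mice. Here the highest value of the 6 was that of p300-ifKO replicate 2. The fold change of Kmt2b was −0.16 on the log2 scale with SE 0.19, from means of 2268 ± 150 and 2036 ± 488.

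Kmt2c and Kmt2d encode the enhancer enzymes MLL3 and MLL4, among the longest proteins of the nucleus. The values of Kmt2c (ENSMUSG00000038056, chr5:25271798-25498783, minus strand, 20.291 kb) were 1824, 1846 and 2834 in controls and 1039, 2279 and 1724 in p300-ifKO mice, with means of 2168 ± 577 and 1681 ± 621. Kmt2d (ENSMUSG00000048154, chr15:98831669-98871204, minus strand, 19.931 kb) had 3343, 3020 and 3982 in controls and 1573, 4168 and 2359 in p300-ifKO mice, with means of 3448 ± 489 and 2700 ± 1331. In both genes 2 p300-ifKO mice lay below each of the controls, and in Kmt2d the remaining one lay above each of them. The log2 fold changes were −0.37 (SE 0.29) for Kmt2c and −0.35 (SE 0.31) for Kmt2d.

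The partners of these enzymes spread less. Kdm6a (ENSMUSG00000037369, chrX:18162575-18279936, plus strand, 8.383 kb) had 687, 708 and 848 normalized counts in controls and 432, 797 and 647 in the p300-ifKO group, which gave a log2 fold change of −0.26 with SE 0.23. Ncoa6 (ENSMUSG00000038369, chr2:155390656-155473894, minus strand, 9.744 kb), which encodes a nuclear receptor coactivator, had 1990, 2178 and 2461 in controls and 1631, 2348 and 2059 in p300-ifKO mice. It was the exception among the members in that p300-ifKO replicate 3 lay above 1 of the controls. Its log2 fold change was −0.13 with SE 0.17, and its highest library was 1.51 times its lowest.

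Setd1a and Setd1b encode the paralogous enzymes of the SET1 complexes. Setd1a (ENSMUSG00000042308, chr7:127776670-127800122, plus strand, 6.795 kb) had 828, 803 and 803 normalized counts in controls and 765, 917 and 783 in p300-ifKO mice. It was the most even of the members, with a highest library of 917 and a lowest of 765, and its log2 fold change was 0.019 (SE 0.13, 95% interval −0.24 to 0.28). Of its exonic bases, 3523 lie also in Gm49388, an annotated gene on the same strand with 0 counts in all 6 libraries, and how the counting treated reads shared by both genes is not stated. Setd1b (ENSMUSG00000038384, chr5:123142193-123168629, plus strand, 12.068 kb) had 1167, 1038 and 1511 in controls and 640, 1318 and 943 in p300-ifKO mice. For Setd1b the log2 fold change was −0.36 with SE 0.26, and its groups overlapped through p300-ifKO replicate 2.

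Kmt2e encodes MLL5, a family member whose SET domain is not known to methylate histones in the manner of the others. Kmt2e (ENSMUSG00000029004, chr5:23434441-23504235, plus strand, 10.444 kb) had 2413, 2212 and 2997 normalized counts in controls and 963, 2952 and 1759 in p300-ifKO mice. This was the widest spread of the members, with a highest library 3.11 times the lowest, and the 3 p300-ifKO mice alone covered nearly all of it. The log2 fold change was −0.43 with SE 0.33 and a 95% interval from −1.08 to 0.22. Its exons share 972 bases with the opposite-strand gene Srpk2, which matters because no strand setting of the counting is stated. Kdm6b (ENSMUSG00000018476, chr11:69398508-69413675, minus strand, 6.954 kb), a demethylase induced by neuronal activity and inflammatory signals, had 959, 852 and 1063 in controls and 615, 1061 and 820 in p300-ifKO mice. Kdm6b thus had means of 958 ± 106 and 832 ± 223, with a log2 fold change of −0.20 and SE 0.22. Overlaps with opposite-strand genes were shorter for Kdm6b (286 bases, Kdm6bos), Kmt2a (378 bases, AC061963.1) and Kmt2c (274 bases, Gm42585).

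**Figure D1:**
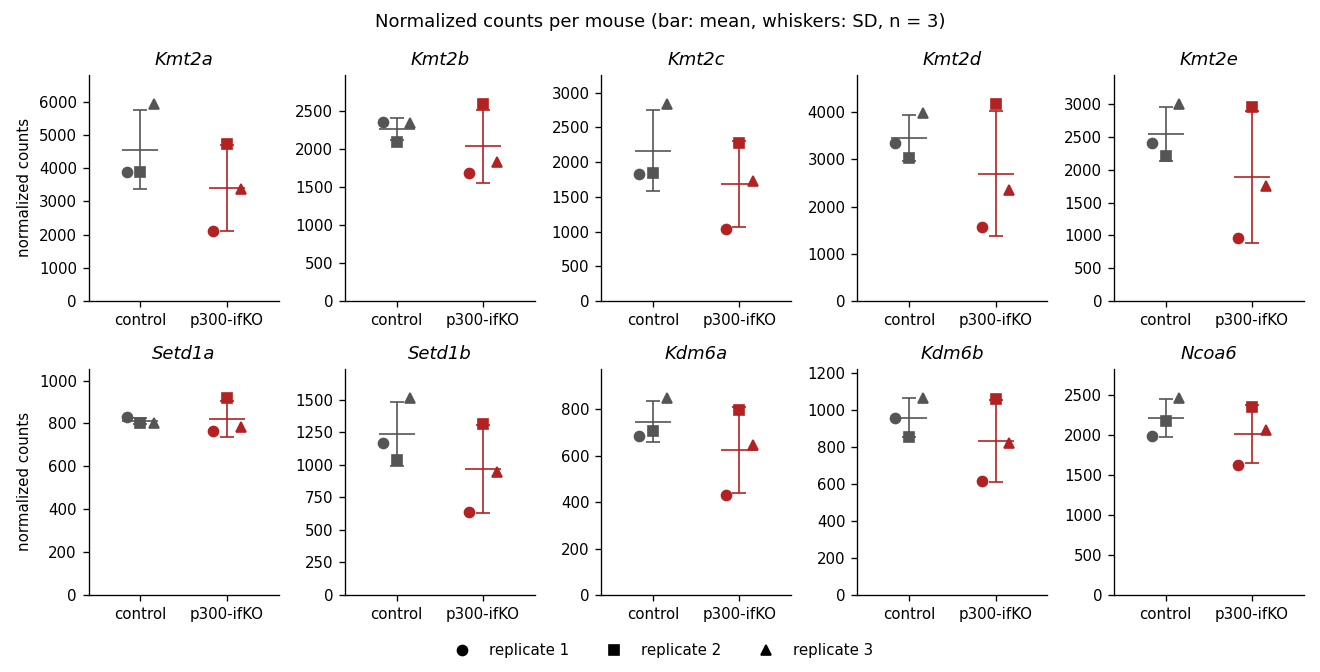
Normalized counts of the 10 genes in each mouse (vertical axis, from 0, one scale per gene) for control (grey) and p300-ifKO (red) mice; marker shape gives the replicate number, the long bar the mean and the whiskers the SD of 3 mice. The p300-ifKO circle (replicate 1) is the lowest point in all 10 panels, p300-ifKO replicate 2 is within or above the controls, and Setd1a spans only 765 to 917.

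The members ranked the p300-ifKO mice alike. Replicate 1 was the lowest and replicate 2 the highest of the 3 p300-ifKO mice for 10 of 10 members, and 35.6% of all genes with a mean of at least 10 had this order. Ep300, with 14.273 kb of exon, had it too. Replicate 1 was the lowest of all 6 libraries for 10 of 10 members, against 37.8% of those genes. For 9 of 10, all but Ncoa6, replicates 1 and 3 were both below each control, against 24.5%. Control replicate 3 was the highest library for 7 members, and p300-ifKO replicate 2 for Kmt2b, Kmt2d and Setd1a.

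These shares have to be read beside transcript length, because the members are long and the deviation of a library from the others was related to length. Exonic length ran from 6.795 kb in Setd1a to 20.291 kb in Kmt2c. When the genes with a mean of at least 10 were divided by exonic length into 10 bins of 1707 genes, 7 members fell in the longest bin (9.563 kb and over), Kdm6a in bin 9, and Setd1a and Kdm6b in bin 8. The bin of Setd1a depends on how reads shared with Gm49388 were counted. Its bases that lie in no other gene number 3243, a length within bin 4 (2.766 to 3.4 kb). Within the longest bin, p300-ifKO replicate 1 was the lowest library for 81.7% of genes, the order 1, 3, 2 held for 79.3%, replicates 1 and 3 were both below the controls for 61.8%, and the log2 fold change was below 0 for 88.7% (50.7% of all 17070 genes). The share of members below 0 was thus close to that of the longest genes. The median log2 fold change was −0.18 in the longest bin, −0.11 in bin 9 and −0.069 in bin 8, beside −0.30 for the members.

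Across those 17070 genes, which are not independent replicates, the deviation of a library from the mean of all 6 was set against exonic length. Spearman's rho was 0.18, 0.16 and 0.41 for control replicates 1, 2 and 3, and −0.50, 0.42 and −0.28 for p300-ifKO replicates 1, 2 and 3. The relation thus ran in opposite directions within the p300-ifKO group. Averaged over the members, the log2 deviation was 0.081, 0.018 and 0.37 in the controls and −0.63, 0.31 and −0.14 in p300-ifKO mice. The medians over the genes of the longest bin were 0.032, 0.033 and 0.23, then −0.37, 0.15 and −0.071, smaller in size than the member averages in 5 of the 6 libraries and in the same direction in all 6. The part that length bias, RNA quality or genotype had in these deviations was not tested.

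**Figure D2:**
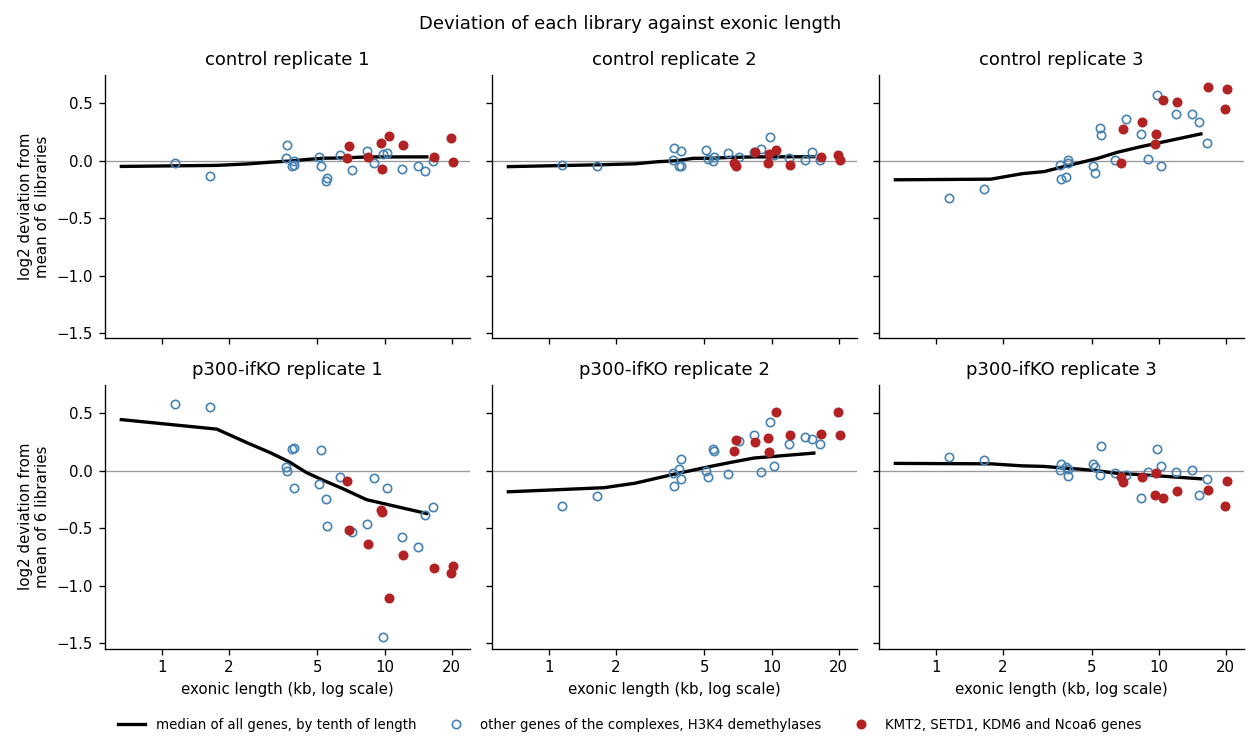
Log2 deviation of a gene from its mean over 6 libraries (vertical axis) against exonic length in kb (horizontal log axis), one panel per library; the black line joins the medians of all genes in 10 bins of length, red points are the 10 members and open blue points the other genes of their complexes and the H3K4 demethylases. The line falls to −0.37 in p300-ifKO replicate 1 and climbs to 0.23 in control replicate 3, and most members lie beyond it in those libraries.

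When each library was given smooth offsets for exonic length and GC content, the median log2 fold change of the members moved from −0.30 to −0.17 and the number called stayed 0 (0.0117% of 17053 genes were called higher and 0% lower). The average log2 deviation of the members after the offsets was still −0.39 in p300-ifKO replicate 1 and 0.20 in both p300-ifKO replicate 2 and control replicate 3. With 1 surrogate variable estimated from the libraries, 8 members had a log2 fold change above 0, the median was 0.032, and again 0 were called (0.0061% of genes higher, and 0.00305% lower, which is Ep300 alone). The values of that variable were −0.82, 0.32 and −0.12 in the p300-ifKO mice and 0.11, 0.082 and 0.43 in the controls, so it followed the same order as the members. The median without p300-ifKO replicate 1 was −0.066, and without control replicate 3 it was −0.14.

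Leaving out p300-ifKO replicate 2, in which Ep300 was highest within its group, changed the calls. In that fit of 5 libraries 4 members passed the test, each lower in p300-ifKO: Kmt2a (log2 fold change −0.73, DESeq2 adjusted p = 0.0298), Kmt2d (−0.81, adjusted p = 0.00667), Kmt2e (−0.90, adjusted p = 0.0136) and Setd1b (−0.64, adjusted p = 0.0365). The median of the 10 was −0.55, and Setd1a moved to −0.065. In the same fit 4% of 11129 genes were called lower and 4.43% higher, and in the longest bin 14.7% of 1532 genes were called lower. The p300-ifKO mice that remain in this fit are the ones with the lower values for long transcripts, and genotype and the relation to length cannot be told apart there.

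**Figure D3:**
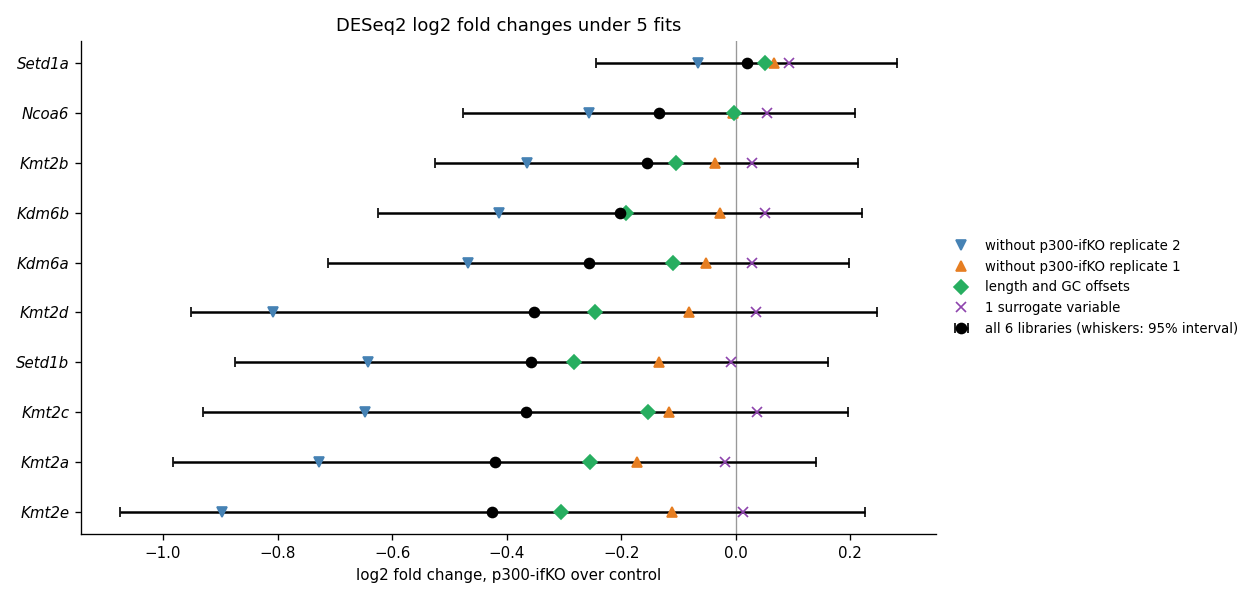
DESeq2 log2 fold change of p300-ifKO over control (horizontal axis) for each member, under 5 fits: all 6 libraries (black, whiskers 95% interval), without p300-ifKO replicate 2 (blue), without p300-ifKO replicate 1 (orange), with length and GC offsets (green) and with 1 surrogate variable (crosses). Every whisker spans 0; the values without replicate 2 lie furthest left, down to −0.90 for Kmt2e, and those with the surrogate variable lie near 0 or above it.

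The members also varied together from mouse to mouse. Pearson's r of log2 normalized counts over the 6 libraries, which share groups, depth and the relation to length, ranged from 0.54 to 0.997 over the 45 pairs with a median of 0.95. The 9 pairs with Setd1a had 0.54 to 0.85, and the other 36 pairs had 0.78 or more. After the length and GC offsets the median over pairs was 0.84, with a range from 0.021 to 0.99. Such likeness was common in these libraries: of 8165 genes with a mean of at least 500, 26.3% correlated with the average of the members with r over 0.9. The 3 closest outside the lists were Akap17b (r = 0.9996), Zfp597 (r = 0.999) and Fem1b (r = 0.999), each over 6 libraries and each in length bin 8. Akap17b had 657, 639 and 733 normalized counts in controls and 497, 736 and 605 in p300-ifKO mice.

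Levels of different genes were compared as normalized counts per kb of exon, averaged over all 6 mice. In that order Kmt2a stood first with 239 ± 76.8 (SD, n = 6), followed by Kmt2b with 224 ± 36.1, Ncoa6 with 217 ± 30.1 and Kmt2e with 212 ± 73.8. Kmt2d had 154 ± 49.5, Kdm6b 129 ± 24.5 and Setd1a 120 ± 7.91. Kmt2c had 94.8 ± 29.5, Setd1b 91.4 ± 25.2 and Kdm6a, the lowest, 81.9 ± 17.3. The whole family thus lay in a narrow band, from the 45.1st to the 70.7th percentile of the 17070 genes.

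Of the 9 neighbouring pairs in that order, 0 differed past an adjusted p of 0.05 (exact permutation test by sign flips within libraries, two-sided, adjusted over 9 pairs). Kmt2e exceeded Kmt2d 1.36-fold in 6 of 6 libraries and Setd1b exceeded Kdm6a 1.10-fold in 6 of 6. Both gave p = 0.03125, the smallest this exact test can give, and 0.141 after adjustment. Since pairs at that smallest p stayed above 0.05 once adjusted, the adjusted test could hardly pass and decides little about the order. The pairs were also made neighbours by ranking the same means. The first 4 genes exchanged places between libraries, and with the longest transcript as the length the order among them became Kmt2e, Ncoa6, Kmt2b, Kmt2a. Per kb of the bases that lie in no other gene, a measure chosen after seeing the data, Setd1a had 252 ± 16.6 and moved from rank 7 to rank 1, so its place in the order depends on how reads in the stretch shared with Gm49388 were counted.

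**Figure D4:**
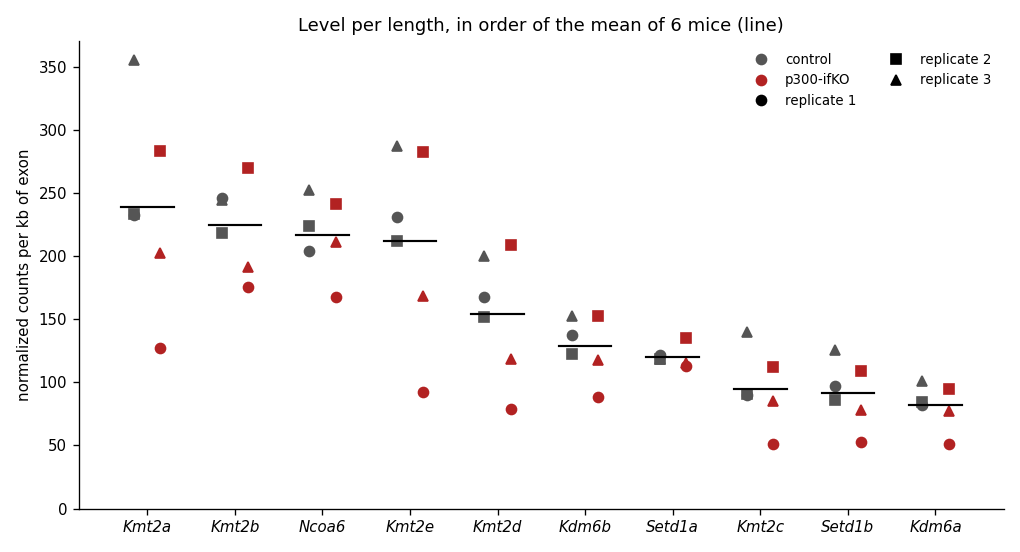
Normalized counts per kb of exon (vertical axis, from 0) for the 10 members, ordered by the mean of 6 mice (line); grey markers are control and red markers p300-ifKO mice, with the shape giving the replicate. Means step down from 239 in Kmt2a to 81.9 in Kdm6a, neighbouring genes overlap, and the 6 points of Setd1a lie close together.

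Ratios of paralogues within a library were compared next, since a ratio of 2 genes of like length is less exposed to a length trend. Not all pairs were of like length. The ratio of exonic lengths was 1.02 for Kmt2c over Kmt2d and 1.21 for Kdm6a over Kdm6b. It was 1.74 for Kmt2a over Kmt2b and 0.563 for Setd1a over Setd1b. With 3 mice against 3, the exact permutation test cannot give a p under 0.1. Kmt2c over Kmt2d, the pair closest in length, was 0.546, 0.611 and 0.712 in controls and 0.660, 0.547 and 0.731 in p300-ifKO mice, overlapping throughout (log2 difference 0.051, exact permutation p = 0.7). Kmt2a over Kmt2b was 1.64, 1.86 and 2.53 in controls and 1.26, 1.82 and 1.84 in p300-ifKO mice (difference −0.29, exact permutation p = 0.4), and the difference was −0.11 without control replicate 3 and also without p300-ifKO replicate 1. After the length and GC offsets the Kmt2a to Kmt2b difference was −0.15. The ratio of Kdm6a to Kdm6b was steady, at 0.717, 0.831 and 0.798 in controls and 0.702, 0.751 and 0.789 in p300-ifKO mice (difference −0.064, exact permutation p = 0.4).

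Setd1a over Setd1b, with exonic lengths of 6.795 and 12.068 kb, was 0.710, 0.773 and 0.531 in controls and 1.19, 0.696 and 0.830 in p300-ifKO mice. Only in p300-ifKO replicate 1 did Setd1a exceed Setd1b in normalized counts, and the group difference was 0.41 on the log2 scale (exact permutation p = 0.3). Adjusted over the 5 pairs, p was between 0.667 and 0.9 for these ratios. The Setd1a to Setd1b difference was 0.20 without p300-ifKO replicate 1, 0.25 without control replicate 3 and 0.36 after the length and GC offsets.

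UTY is the Y-linked relative of UTX with little demethylase activity, and Uty (chrY:1096861-1245759, minus strand, 9.791 kb) could be compared with Kdm6a because the mice were male. Uty had 326, 362 and 467 normalized counts in controls and 115, 421 and 357 in the other group, for a log2 fold change of −0.37 with SE 0.39. Kdm6a over Uty was 2.11, 1.95 and 1.81 in controls and 3.76, 1.89 and 1.81 in p300-ifKO mice (exact permutation p = 0.9). One mouse, p300-ifKO replicate 1, stood apart in this ratio through its low Uty. Per kb of exon Kdm6a was at 2.50 times the level of Uty, and of the 50-base stretches of Kdm6a 12 were also in Uty.

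The rest of the complexes gave no call. Of 22 listed genes (shared subunits, subunits of particular complexes, the protease Tasp1, which cleaves KMT2A and KMT2B, Uty, and enzymes that remove H3K4 methylation), 21 were tested and 0 were called in either direction or had an unadjusted p under 0.05 in DESeq2 or edgeR. Pagr1a, a subunit of the KMT2C and KMT2D complexes, was at 0 counts in all libraries, and 1412 of its 1430 exonic bases lie also in Gm42742. The log2 fold change was below 0 for 15 and above 0 for 6, with a median of −0.061. The core that every COMPASS complex shares (Wdr5, Ash2l, Rbbp5 and Dpy30) had a median of −0.0044, the SET1-specific subunits −0.0088 and the 6 H3K4 demethylases −0.14.

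The extremes of the list were Bod1 and Dpy30 at one end and Uty and Hcfc1 at the other. Bod1, a SET1 complex subunit of 1.644 kb, had 1533, 1635 and 1422 normalized counts in controls and 2471, 1450 and 1798 in p300-ifKO mice (log2 fold change 0.32, SE 0.21). Dpy30, a core subunit of 1.146 kb, had 484, 480 and 392 in controls and 738, 397 and 534 in p300-ifKO mice (0.30, SE 0.24). Hcfc1, a host cell factor of 8.36 kb bound to SET1 and MLL1/2 complexes, had 3672, 3651 and 4067 in controls and 2501, 4289 and 2938 in p300-ifKO mice (−0.23, SE 0.21). Bod1 and Dpy30 thus had their highest value in p300-ifKO replicate 1, the mouse in which the long members were lowest.

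Across the list, the 6 genes that peaked in p300-ifKO replicate 1 were between 1.146 and 5.179 kb long and the 14 that were lowest there between 3.93 and 16.555 kb, so the ranges overlapped. Tasp1, at 3.652 kb, did neither. Without p300-ifKO replicate 2, Bod1 was called higher (0.48, DESeq2 adjusted p = 0.0451) and Hcfc1 lower (−0.48, adjusted p = 0.0243). Without p300-ifKO replicate 1 the log2 fold change was 0.085 for Bod1, 0.040 for Dpy30 and −0.073 for Hcfc1, and none of these was called. The groups did not overlap for 2 of the 21 genes tested, beside 7.46% of the 17070 genes with a mean of at least 10 normalized counts. These were Wdr82, a SET1 subunit (lower, 3.42% of all genes tested), and Men1, which encodes menin (higher, 3.21%). They were named after their values were seen. Wdr82 had 3809, 3855 and 3694 in controls and 3541, 3615 and 3630 in p300-ifKO mice. Men1 had 1671, 1672 and 1564 in controls and 1961, 1739 and 1765 in p300-ifKO mice.

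Markers of other cell types were read beside the members. Of the 46 markers in 9 lists, 0 were called and 0 were at 0 in a library. The summed normalized counts of the 8 excitatory neuron markers overlapped, at 142207 to 162718 in controls and 139673 to 167338 in p300-ifKO mice. Astrocyte sums did not overlap (37965 to 39502 in controls, 35473 to 36823 in p300-ifKO mice), with 3 of the 5 genes below 0 in log2 fold change and 2 above. Microglia sums did not overlap either (6286 to 6797 and 6962 to 7896), with 2 of the 6 genes below 0 and 4 above. Each separation was lost when 1 gene, chosen after its values were seen, was left out. The sums overlapped for astrocytes without Slc1a3 (17628 to 18874 and 18410 to 19468) and for microglia without C1qa (5375 to 5726 and 5686 to 6011). Taken singly, C1qa overlapped between the groups. Csf1r did not (2531 to 2600 in controls, 2702 to 2885 in p300-ifKO mice), as held in that direction for 3.21% of all genes tested. The other microglia markers overlapped. In the other lists the groups did not overlap for Neurod2 (higher, log2 fold change 0.33), Gad1 (lower, −0.14), Slc1a3 (lower, −0.25) and Pecam1 (lower, −0.19). The remaining markers overlapped. Of genes with a mean of at least 10 normalized counts, 7.46% did not overlap in either direction. Sums for interneurons, oligodendrocytes, oligodendrocyte precursors, endothelium, choroid plexus and blood overlapped. The part of cell composition in the values of the members was not tested.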

How the data were processed

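Per the study's methods and the labels, total RNA of the hippocampus was sequenced as single-end reads of 50 bp. The authors trimmed adapters (Trim Galore 0.6.4), aligned to GRCm38 with STAR 2.6.1, filtered on mapping quality, and counted the rest over exons of Ensembl genes by Rsubread, without a stated strand setting. The filter discards reads with several matches, which lowers genes with near copies. The deposited table holds raw counts, with 0 per-sample columns unused. Gene identifiers (99.57% matched), coordinates and exons came from GENCODE M21 on the same build, and the exonic length in the deposited table agreed for 99.11%.

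Groups and replicate numbers came from the sample titles. The groups were compared with DESeq2 (version 1.42.0, R 4.3.3; the submitters' notes name 1.30.1), two-sided Wald test, median-of-ratios size factors, no covariate, called below an adjusted p of 0.05 over 32773 genes. edgeR (version 4.0.16, quasi-likelihood) served as a further test. Alternatives were TMM factors, a filter of 10 counts or more in 3 libraries or more, a replicate block, smooth length and GC offsets (mgcv 1.9.3), 1 surrogate variable (sva 3.50.0), leaving out each library and other length measures. Library deviations used log2 of normalized counts plus 1. DESeq2, edgeR, the offsets and the surrogate variable were also run on simulated counts, and no value given here rests on those runs.

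The members, lists and tests were chosen with earlier results of these data known. All members were described. Of the related genes, Uty and the 2 highest and 2 lowest log2 fold changes were named, and of genes with a like pattern the 3 with the highest correlation. Columns other than counts and length were not used.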

Additional observations from a re-analysis of the deposited data

How the results depend on the processing

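Arsi and Esr1, the 2 genes called with all libraries, were called under each alternative, except that without p300-ifKO replicate 2 the independent filter of DESeq2 gave Arsi no adjusted p. The number of genes called, 2 with all libraries, ranged from 2 to 938 when 1 library was left out, and the number of members called from 0 to 4, the highest of each without p300-ifKO replicate 2. Of the 2 genes, 1 (Esr1) was among the 938. The number of members called stayed 0 under edgeR, TMM factors, the count filter, the offsets, the surrogate variable and the block.

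Replicate numbers were not taken as pairs in the main test. Deviations of same-numbered mice correlated with r of 0.26, −0.26 and 0.17, which did not settle whether these mice were paired. A deviation from the mean of all 6 libraries by itself shifts r between libraries downward. The column names of the counts number the libraries alike in both groups, without stating pairs. The replicate block called 4 genes in all, and the median of the members under it was −0.35.

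With 1 surrogate variable, directions turned for Kmt2b (0.028), Kmt2c (0.036), Kmt2d (0.035), Kmt2e (0.013), Kdm6a (0.028), Kdm6b (0.050), Ncoa6 (0.054), Uty (0.13), Hcfc1 (0.0042) and Dpy30 (−0.065). When 1 library was left out, the log2 fold change of Setd1a ranged from −0.065 to 0.067 and Uty from −0.70 to 0.012 (without p300-ifKO replicate 1). The log2 level of Kmt2a over Kmt2b then ranged from −0.060 (without control replicate 3) to 0.14, and that of Ncoa6 over Kmt2e from −0.038 (without p300-ifKO replicate 1) to 0.18. The group difference in Kdm6a over Uty ranged from −0.076 (without p300-ifKO replicate 1) to 0.45, and that in Kmt2c over Kmt2d was −0.040 without control replicate 1 and −0.043 without p300-ifKO replicate 3. Per kb of the longest transcript, Kmt2a over Kmt2b was −0.12 and Kmt2b over Ncoa6 −0.23. Per kb of bases in no other gene, Kdm6b over Setd1a was −0.93 and Ncoa6 over Kmt2e −0.029. The Kdm6a to Kdm6b difference was 0.097 after the offsets. For the changes under the surrogate variable, the cause was not tested.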
